A study of Mus musculus with 8 samples.

Results

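Secreted Wnt proteins, the receptors that bind them and the genes that dampen the signal were followed in the cells that build the nephric (Wolffian) duct and the ureteric bud of the mouse embryo. The set held 52 genes: 18 Wnt ligands, 12 Frizzled and LRP receptors, 7 R-spondins and their LGR receptors, 10 secreted antagonists with a co-receptor, and 5 feedback and nuclear genes. They were taken by name from the 34837 gene names on the array, and each gene was read from its probe with the highest mean level. All embryos were of the ICR strain. Cells were sorted by a GFP reporter under Hoxb7, a gene of the duct, or by a Wt1-GFP reporter of intermediate mesoderm, the neighbouring tissue that holds the nephron precursors. The Hoxb7-GFP groups were E8.75 (1 array, from the embryo with no part named and no Flk1 selection stated), E9.5 (2 arrays, the rostral and the caudal duct), E10.5 (2 arrays, rostral and caudal duct) and E11.5 (1 array, the ureteric bud). From E9.5 on, these cells were also labelled Flk1-negative, Flk1 being the endothelial receptor encoded by Kdr. The Wt1-GFP group was E9.5 (2 arrays, the rostral and the caudal part of the embryo), with no Flk1 selection stated. The number of embryos pooled for an array was not given in the sources used here, nor was whether the rostral and caudal arrays of a stage came from the same embryos, so an SE over such a pair need not measure the spread between embryos.

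A Wnt protein binds a Frizzled receptor together with LRP5 or LRP6. The signal keeps beta-catenin from being degraded, and beta-catenin then acts on genes with TCF and LEF proteins. RNF43 is a ubiquitin ligase that removes Frizzled from the membrane, and R-spondins with their LGR receptors take RNF43 away, so that more Frizzled stays. Axin2, Nkd1 and Rnf43 are feedback genes that Wnt signals switch on in many tissues. In kidney development the duct makes Wnt9b, which induces nephrons in the mesenchyme beside it, and Wnt4 acts in that mesenchyme afterwards. Wnt11 is known from the tip of the ureteric bud and Wnt7b from its stalk.

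The stretch before the gene start is shown for Wnt9b, Rnf43 and Dkk1, which passed limma's test as higher in the E9.5 duct than in Wt1-GFP cells when the prior variance followed intensity. Fzd6 passed it too and had no entry in the RefSeq table. Each line gives the 200 bases before the RefSeq start, 5′ to 3′ on the gene's strand, in build GRCm38.p6. Capitals mark CTTTGAA or CTTTGTT, forms of the site that TCF and LEF proteins recognise, searched on both strands. Wnt9b lies on the minus strand at chr11:103749822-103750021, Rnf43 on the plus strand at chr11:87662887-87663086 (the farther upstream of 2 listed starts) and Dkk1 on the minus strand at chr19:30549497-30549696.
Wnt9b: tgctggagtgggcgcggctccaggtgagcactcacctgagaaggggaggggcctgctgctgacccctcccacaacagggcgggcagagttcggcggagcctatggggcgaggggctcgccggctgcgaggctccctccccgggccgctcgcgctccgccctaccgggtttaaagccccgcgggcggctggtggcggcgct
Rnf43: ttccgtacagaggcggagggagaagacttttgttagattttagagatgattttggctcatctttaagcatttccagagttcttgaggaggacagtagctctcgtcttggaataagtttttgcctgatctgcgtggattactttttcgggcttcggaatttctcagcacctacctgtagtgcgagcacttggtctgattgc
Dkk1: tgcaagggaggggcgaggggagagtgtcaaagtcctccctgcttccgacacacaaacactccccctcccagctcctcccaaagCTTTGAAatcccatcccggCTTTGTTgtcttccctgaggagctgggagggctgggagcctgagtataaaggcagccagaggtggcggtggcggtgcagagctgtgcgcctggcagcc
Dkk1 held both forms of the motif on its own strand, beginning 117 and 98 bases before the start. Wnt9b and Rnf43 held neither in these 200 bases. The Wnt9b stretch was 74% G and C with 20 CG pairs, against 45% with 7 for Rnf43 and 62% with 6 for Dkk1. RefSeq windows of 300 bases, from 250 before to 50 after a start, were matched for 35 of the 52 members by symbol, with 43 windows in all. At least 1 motif was in 3 of these windows (6.98%), those of Dkk1, Fzd7 and Wnt3, against 10.6% of all 32851 windows. At least 2 motifs were in 0.764% of all windows.

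Each level is the log2 of a probe's signal over the 75th percentile of signals on its array, so 0 marks that percentile. Results compare 1 probe between arrays. Levels of different probes were set against each other only to pick a gene's probe and the members printed in full. Where a gene has a pair of values at a stage, the rostral one comes first. Of the 52 members, 31 were well above background on all 8 arrays and 18 on some. Wnt2, Wnt8a and Rspo4 were well above background on 0 of 8 arrays, which leaves 49 members in the tests, as 29282 of all gene names (84.1%) were tested. Between 38 and 45 of the 52 members were well above background on an array. A gene is called separated by 2-fold where its fitted log2 difference was at least 1 and the arrays of the groups did not overlap. This is a description, since most groups held 1 or 2 arrays.

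Markers of the labelled tissue followed the sorts, but other cell types also differed between arrays. The summed level of 9 nephric duct genes, as multiples of the 75th percentile, was 50.2 to 96.5 on the 6 Hoxb7-GFP arrays and 14 and 9.49 on the Wt1-GFP arrays. Nephrogenic mesoderm genes (7) summed to 749 and 693 in Wt1-GFP cells and to 558 to 689 in Hoxb7-GFP cells, mostly from Eya1 (9.12 to 9.5). All 7 were lower in the E9.5 duct than in Wt1-GFP cells (median -1.86, 4 separated). Wt1 itself was well above background on both E9.5 duct arrays, at -0.2 and -1.94 against 4.08 and 4.01. Stromal genes (7) summed to 50.4 and 32.7 in Wt1-GFP cells and to 0.767 to 5.98 in duct cells, and all 7 were well above background on both Wt1-GFP arrays. Endothelial genes (7) summed to 42.7 at E8.75 and to 4.04 to 6.04 on the other arrays. All 7 were well above background on both E9.5 duct arrays despite the Flk1 gate, where Kdr was at 1.95 and 1.84 against 2.1 on both Wt1-GFP arrays. Between the reporters 6 of the 7 were higher in the duct (median 1.97) and 4 were separated, with Cdh5, a junction protein of endothelium, called higher at 4.47 (SE 0.46, limma adjusted p = 0.19, 0.027 with the intensity trend). The part of these cells in the reporter differences of the members was not tested. Endoderm genes (6) summed to 6.84 at E8.75, with 6 detected, and to 0.151 to 1.17 elsewhere. Neural genes (7) summed to 131 on the rostral E9.5 duct array against 29.7 to 50 on the others, and heart genes (5) to 7.43 against 0.688 to 4.36. Fewer cells of a type and less RNA per cell cannot be told apart in these sorted pools. The 8 arrays correlated at r = 0.923 to 0.964 over probes. The 4 arrays of the E8.75, E9.5 and rostral E10.5 duct lay in 1 row of the slide and the other 4 in the second, so the E9.5 arrays of the reporters lay in different rows.

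Between the E9.5 duct and Wt1-GFP cells of the same day, members stood apart in both directions. Of 49 members, 19 were separated by 2-fold (13.3% of all genes were), 9 of them higher in the duct (7.75% of all genes) and 10 lower (5.52%). The median absolute log2 difference was 0.9 over members and 0.41 over all genes. Higher in the duct were Wnt6, Wnt9b, Wnt11, Fzd6, Lgr5, Dkk1, Sfrp4, Rnf43 and Tcf7. Of these, Wnt9b, Rnf43 and Sfrp4 were well above background on duct arrays only. They entered the tests through those arrays alone, so their separation or call as higher adds no support. Lower were Wnt2b, Wnt9a, Fzd1, Fzd2, Fzd7, Fzd9, Rspo1, Rspo2, Frzb and Nkd1. Limma's plain fit, which had 2 residual degrees of freedom, called 0 members and 0 genes at adjusted p 0.05 (0%), and unadjusted p was under 0.05 for 9 members higher (6.44% of all genes) and 7 lower (6.91%). With a prior variance that follows intensity it called 5 members, where 2.16% of all genes passed: Dkk1, Fzd6, Rnf43 and Wnt9b higher and Fzd1 lower. Those 5 were also called without the caudal Wt1-GFP array. Leaving out the rostral duct array of E9.5 gave 6 members and leaving out the rostral Wt1-GFP array gave 11. Leaving out the caudal duct array of E9.5 or either array of E10.5 gave 0, and so did the slide row as a block. No group repeated the same kind of sample, so the p-values rest on how the rostral and caudal arrays differed from group to group, which may be technical.

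**Figure D1:**
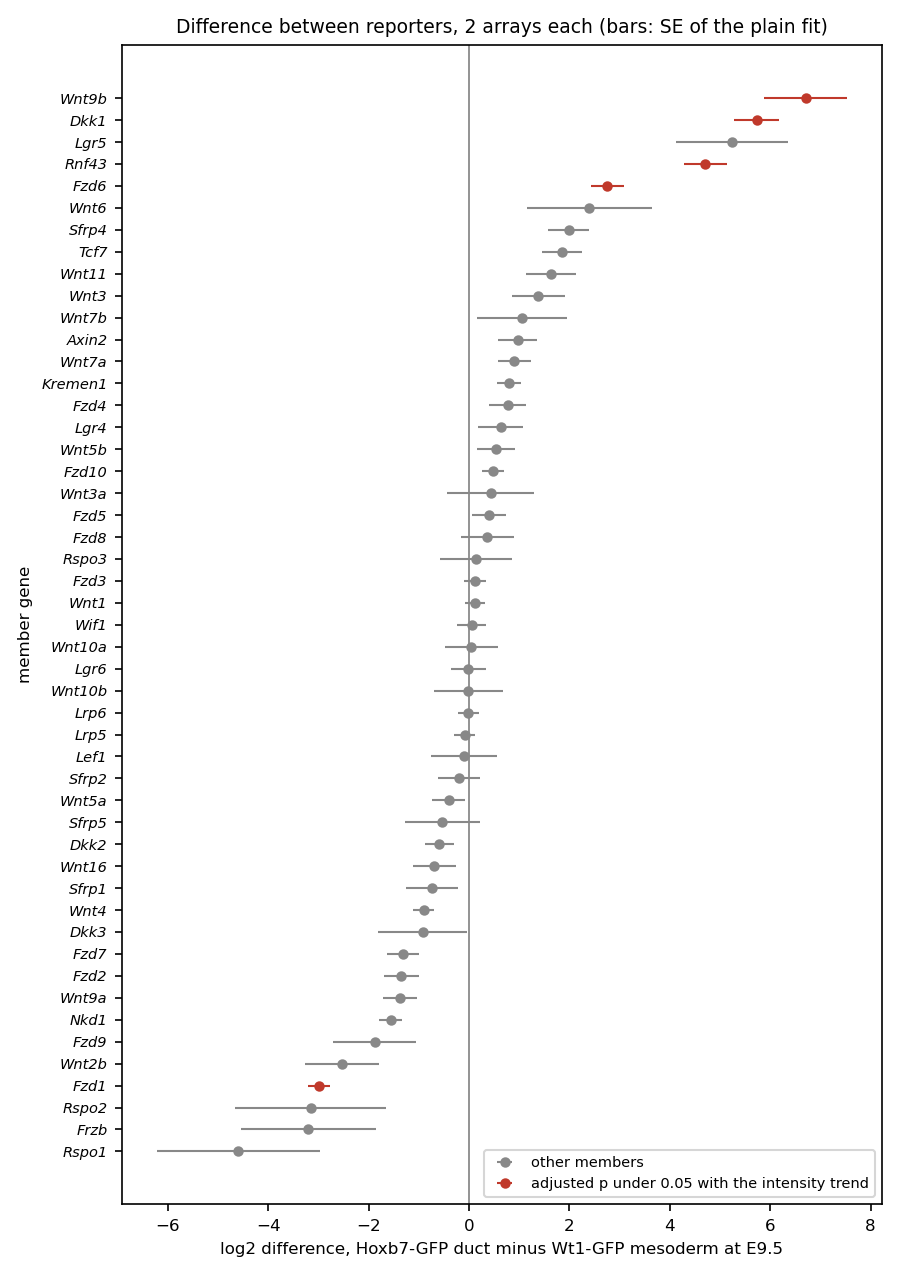
Log2 difference between the E9.5 duct and E9.5 Wt1-GFP cells (2 arrays each) for the 49 members tested, sorted by size, with bars of 1 SE from the plain fit; red points passed adjusted p 0.05 with the intensity trend. The 5 red members are Wnt9b, Dkk1, Rnf43 and Fzd6 to the right of 0 and Fzd1 to the left.

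Among the ligands, Wnt9b had the clearest pattern. Wnt9b, the duct signal that induces nephrons, was at -4.37 at E8.75, 1.4 and 2.1 at E9.5, 3.52 and 2.94 at E10.5, 3.77 at E11.5 and -3.76 and -6.16 in Wt1-GFP cells. It was well above background on all 5 duct arrays from E9.5 on and on neither Wt1-GFP array, nor at E8.75, and no Wt1-GFP level reached any of those 5. With undetected levels floored, the E9.5 duct exceeded Wt1-GFP cells by 54.6-fold, and the fitted log2 difference was 6.71 (SE 0.83, limma adjusted p = 0.21, 0.025 with the intensity trend). Against E8.75 the E9.5 duct was 69.7-fold higher with undetected levels floored, and the fitted difference was 6.12 (SE 1.02, limma adjusted p = 0.22, 0.049 with the intensity trend). With all arrays kept, the smallest sizes of these differences over the alternatives were 3.48 and 3.59. Wnt9b was tested only through the duct arrays from E9.5 on, so both set detected against undetected levels. From E9.5 to E10.5 Wnt9b was higher by a further 1.48 (SE 0.83, limma adjusted p = 0.78), with both E10.5 arrays above both E9.5 arrays, but the step was 0.39 or 2.57 when the rostral or the caudal E9.5 duct array was left out. The probe lies at chr11:103588882-103588941 (build mm9, minus strand).

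Wnt6 and Wnt11 had their highest levels in the caudal duct or the bud. Wnt6, a ligand of epithelia and the bud tip, was at -3.64 at E8.75, -2.6 and 0.48 at E9.5, -3.41 and 0.59 at E10.5, 0.49 at E11.5 and -3.24 and -3.68 in Wt1-GFP cells. The caudal duct arrays and the bud were high, and the rostral duct arrays lay near the levels of E8.75 and Wt1-GFP cells. Its rostral and caudal levels differed by -3.08 and -3.99 in the E9.5 and E10.5 duct but by 0.44 in Wt1-GFP cells, and the interaction of position with reporter was -3.99 (SE 0.64, limma adjusted p = 0.81). Wnt11, the ligand known from bud tips, was at 0.02 at E8.75, -0.51 and 0.73 at E9.5, -1.78 and -0.71 at E10.5, 0.95 at E11.5 and -1.35 and -1.72 in Wt1-GFP cells. The caudal E9.5 duct and the bud were its highest arrays, and both Wt1-GFP arrays lay below the E9.5 duct. The bud exceeded the E10.5 duct by 2.2 (SE 0.61, limma adjusted p = 0.37), 4.58-fold, and the E10.5 duct was lower than the E9.5 duct by 1.35 (SE 0.5, limma adjusted p = 0.69).

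Wnt7b, later known from the stalk, set the bud apart. Wnt7b was at -3.17 at E8.75, -3.72 and -1.26 at E9.5, -1.88 and -2.09 at E10.5, 0.69 at E11.5 and -3.24 and -3.86 in Wt1-GFP cells. The E11.5 bud was its highest array, 6.36-fold above the E10.5 duct (2.67 (SE 1.09, limma adjusted p = 0.43)), and at 1.06 the reporter difference was smaller, with overlapping arrays. Wnt11 and Wnt4 are described with their own values, and 4 more ligands were separated at that step. Wnt10b was at -2.25 at E8.75, -2.31 and -2.93 at E9.5, -3.57 and -2.24 at E10.5, -1.77 at E11.5 and -2.1 and -3.12 in Wt1-GFP cells. Wnt10a was at -5.03 at E8.75, -4.41 and -4.94 at E9.5, -5.89 and -5.27 at E10.5, -3.51 at E11.5 and -5.36 and -4.08 in Wt1-GFP cells, well above background only in the bud and the caudal Wt1-GFP cells. Wnt3a, a ligand of the tail bud, was at -3.27 at E8.75, -3.32 and -3.42 at E9.5, -6.93 and -3.85 at E10.5, -3.02 at E11.5 and -4.36 and -3.26 in Wt1-GFP cells, and the E10.5 arrays were not well above background. In the bud it was 2.85-fold above the E10.5 duct with undetected levels floored. Its log2 difference at that step went down to 0.31 over the alternatives with all arrays kept. Wnt7a was at -3.27 at E8.75, -3.02 and -3.46 at E9.5, -2.67 and -3.41 at E10.5, -4.41 at E11.5 and -4.27 and -4.02 in Wt1-GFP cells. It was not well above background in the bud, 2.59-fold below the E10.5 duct with undetected levels floored.

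Wnt4 was higher on the rostral array of every pair. Wnt4, which drives mesenchyme to become epithelium during nephron formation, was at -1.13 at E8.75, -0.59 and -2.87 at E9.5, -0.32 and -2.33 at E10.5, -2.49 at E11.5 and 0.24 and -1.9 in Wt1-GFP cells. In all 3 divided groups the rostral array was higher, by 2.28, 2.01 and 2.14 in the E9.5 duct, the E10.5 duct and Wt1-GFP cells. The fitted rostral excess was 2.14 (SE 0.17), with a limma adjusted p of 0.73 over all genes. A second, dimmer Wnt4 probe had a rostral excess of 1.35. The bud lay below the mean of the rostral and caudal E10.5 duct by 1.16 on the probe used (SE 0.26, limma adjusted p = 0.32), whereas the second probe differed by 0.6 the other way. Against the caudal E10.5 array alone, the bud differed by -0.16 on the probe used. The probe used lies at chr4:136855342-136855401 (mm9, plus strand).

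Other ligands were highest at E8.75 or in Wt1-GFP cells. Wnt5b was at 3.15 at E8.75, 1.46 and 2.71 at E9.5, 1.16 and 1.15 at E10.5, 1.02 at E11.5 and 1.25 and 1.85 in Wt1-GFP cells, highest at E8.75 and then in the caudal E9.5 duct. Wnt3, a ligand of the early embryo, was at -2.32 at E8.75, -5.57 and -3.27 at E9.5, -5.51 and -4.94 at E10.5, -4.32 at E11.5 and -6.18 and -5.41 in Wt1-GFP cells, and only the E8.75 and the caudal E9.5 arrays were well above background. Its caudal array was the higher of each pair, with a fitted difference of -1.21 (SE 0.43, limma adjusted p = 0.73). At E8.75 endothelial and endoderm markers were also at their highest, and their part in these levels was not tested. Wnt2b was at -4.31 at E8.75, -2.91 and -2.66 at E9.5, -0.79 and -2.09 at E10.5, -1.13 at E11.5 and 0.96 and -1.47 in Wt1-GFP cells, and Wt1-GFP cells exceeded the E9.5 duct by 5.79-fold (-2.53 (SE 0.73, limma adjusted p = 0.34)). That difference was -1.47 or -3.59 when the rostral or the caudal E9.5 duct array was left out, and -1.58 or -3.49 when the rostral or the caudal Wt1-GFP array was. Wnt9a was at -5.94 at E8.75, -4.32 and -4.03 at E9.5, -3.77 and -4.18 at E10.5, -4.4 at E11.5 and -2.42 and -3.18 in Wt1-GFP cells, with both Wt1-GFP arrays above every duct array. Only the caudal E9.5 and the rostral E10.5 duct were well above background, so the fitted -1.37 (SE 0.34, limma adjusted p = 0.32) rests partly on an undetected level and was -0.48 with normexp background correction. Wnt5a, a ligand that often acts without beta-catenin, was at 2.43 at E8.75, 1.96 and 2.12 at E9.5, 2.17 and 1.7 at E10.5, 1.99 at E11.5 and 2.16 and 2.71 in Wt1-GFP cells, a range of 1.01 over all arrays. Wnt1 ranged from -0.14 to 0.22 and a second Wnt1 probe was also nearly flat. Wnt16 ranged from -3.37 to -1.67.

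Among the receptors, Fzd6 and Fzd1 ran in opposite directions. Fzd6, a Frizzled of planar polarity, was at -0.27 at E8.75, 1.61 and 2.24 at E9.5, 3.35 and 3.03 at E10.5, 3.35 at E11.5 and -0.82 and -0.85 in Wt1-GFP cells. Both Wt1-GFP arrays and the E8.75 array lay below 0 and every later duct array at 1.61 or more, with no overlap. The E9.5 duct exceeded Wt1-GFP cells by 6.78-fold (2.76 (SE 0.32, limma adjusted p = 0.21, 0.025 with the intensity trend)) and E8.75 by 4.58-fold (2.19 (SE 0.39, limma adjusted p = 0.23, 0.051 with the intensity trend)). From E9.5 to E10.5 it was 2.4-fold higher (1.26 (SE 0.32, limma adjusted p = 0.61)). Fzd1, a Frizzled that can pass on the beta-catenin signal, was at 0.25 at E8.75, -0.74 and -1.17 at E9.5, -0.41 and -0.95 at E10.5, -0.38 at E11.5 and 2.14 and 1.93 in Wt1-GFP cells. Both Wt1-GFP arrays exceeded all 6 duct arrays, and the duct at E9.5 was 7.94-fold lower (-2.99 (SE 0.22, limma adjusted p = 0.17, 0.015 with the intensity trend)). The probes lie at chr15:38869107-38869166 (plus strand) for Fzd6 and chr5:4754003-4754062 (minus strand) for Fzd1, both in mm9.

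Fzd2, Fzd7 and Fzd9 were also lower in the E9.5 duct, and Fzd10 followed stage. Fzd2 was at 4.2 at E8.75, 3.55 and 3.25 at E9.5, 3.22 and 3.2 at E10.5, 2.18 at E11.5 and 4.37 and 5.13 in Wt1-GFP cells, highest in Wt1-GFP cells and lowest in the bud. Fzd7 was at 1.22 at E8.75, 1.31 and 0.55 at E9.5, 1.09 and 0.89 at E10.5, 1.66 at E11.5 and 2.15 and 2.35 in Wt1-GFP cells, and both Wt1-GFP arrays exceeded every duct array. Second probes of Fzd2 and Fzd7 differed the same way between the reporters, by -1.65 and -1.88, against -1.35 and -1.32 on the probes used. Fzd9 was at -1.75 at E8.75, -2.88 and -4.44 at E9.5, -5.29 and -3.82 at E10.5, -1.51 at E11.5 and -1.66 and -1.9 in Wt1-GFP cells, so that the E8.75 array and the bud were as high as Wt1-GFP cells and the duct between them was low. Its reporter difference of -1.88 was -2.97 or -0.79 when the rostral or the caudal E9.5 duct array was left out, and turned to 0.5 with the slide row as a block. Fzd10, a receptor of the early mesoderm and neural tube, was at 1.48 at E8.75, -1.35 and -0.27 at E9.5, -3.6 and -2.84 at E10.5, -2.7 at E11.5 and -1.79 and -0.8 in Wt1-GFP cells. E8.75 was its highest array, the E9.5 arrays came next, and the 3 later duct arrays were below all others. The steps were -2.29 (SE 0.26, limma adjusted p = 0.2, 0.054 with the intensity trend) and -2.41 (SE 0.21, limma adjusted p = 0.51, 0.19 with the intensity trend).

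The remaining receptors varied little or at single arrays. Fzd8 was at -2.03 at E8.75, -0.36 and 0.11 at E9.5, -0.32 and -0.37 at E10.5, -0.83 at E11.5 and 0.17 and -1.16 in Wt1-GFP cells, lowest at E8.75 and overlapping between the reporters. Fzd4 was at 2.24 at E8.75, 2.6 and 2.63 at E9.5, 3.32 and 2.94 at E10.5, 2.11 at E11.5 and 2.43 and 1.26 in Wt1-GFP cells, highest at E10.5. The co-receptors Lrp5 and Lrp6 of the beta-catenin branch ranged from 1.26 to 1.84 and from 1.06 to 1.97, and their reporter differences were -0.08 (SE 0.21) and -0.01 (SE 0.21). Fzd3 ranged from 0.18 to 0.67 and Fzd5 from -2.79 to -1.55. A second Fzd5 probe differed by 2.55 between the reporters where the probe used differed by 0.4.

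The R-spondins were high in Wt1-GFP cells or at E8.75, and the receptor Lgr5 was high in the duct. Rspo1, which amplifies Wnt signals and is known from the gonadal ridge, was at -3.76 at E8.75, -0.89 and -5.47 at E9.5, -2.64 and -6.03 at E10.5, -3.1 at E11.5 and 0.75 and 2.06 in Wt1-GFP cells. Both Wt1-GFP arrays exceeded every duct array, and the caudal duct arrays were not well above background. The fitted reporter difference was -4.59 (SE 1.63, limma adjusted p = 0.38), 24-fold, with 1 of the 2 E9.5 duct arrays well above background, and it was -1.94 or -7.23 when the caudal or the rostral Wt1-GFP array was left out. The rostral array was higher in the duct and lower in Wt1-GFP cells, with an interaction of 5.29 (SE 0.75, limma adjusted p = 0.81). Rspo2, an R-spondin needed for limb and lung, was at -6.8 at E8.75, -6.45 and -3.01 at E9.5, -6.89 and -4.59 at E10.5, -6.48 at E11.5 and -0.59 and -2.58 in Wt1-GFP cells. It was well above background in Wt1-GFP cells and the caudal E9.5 duct alone. Rspo3 was at -0.33 at E8.75, -3.56 and -1.47 at E9.5, -5.07 and -5.53 at E10.5, -4.82 at E11.5 and -2.77 and -2.54 in Wt1-GFP cells. E8.75 was its highest array, and the E9.5 arrays of both reporters overlapped. The E10.5 and E11.5 duct was not well above background. With undetected levels floored, Rspo3 was 3.99-fold lower at E10.5 than at E9.5 (fitted -2.79 (SE 0.71, limma adjusted p = 0.61)). The log2 difference was -1.68 without the caudal E9.5 duct array, and its smallest size over the alternatives with all arrays kept was -0.69. Stromal markers were higher on the Wt1-GFP arrays as well, and their part in the levels of Rspo1 and Rspo2 was not tested.

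Lgr5, a receptor for R-spondins that marks epithelial stem cells, was at 1.91 at E8.75, -0.31 and 0.95 at E9.5, 0.84 and 0.49 at E10.5, 0.32 at E11.5 and -3.47 and -6.38 in Wt1-GFP cells. Every duct array lay above both Wt1-GFP arrays, of which the caudal one was not well above background. The E9.5 difference was 5.24 (SE 1.11, limma adjusted p = 0.29, 0.059 with the intensity trend), between 3.56 and 6.93 with 1 array left out. Over the alternatives with all arrays kept it went down to 2.4. A second Lgr5 probe was well above background on 1 of 8 arrays and differed by 0.02, so the difference rests on 1 probe. Lgr4, the R-spondin receptor needed for kidney growth, was at 1.96 at E8.75, 2.01 and 1.81 at E9.5, 2.61 and 1.29 at E10.5, 2.06 at E11.5 and 1.23 and 1.34 in Wt1-GFP cells. The highest level was in the rostral E10.5 duct, and the reporter difference was 0.63 (SE 0.44, limma adjusted p = 0.56). Lgr6 ranged from -2.64 to -1.3, and its second probe was not well above background on any array.

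Of the secreted antagonists, Dkk1 marked the duct and Frzb the Wt1-GFP cells. Dkk1, which blocks LRP5 and LRP6 and is itself switched on by Wnt signals in many tissues, was at 0.09 at E8.75, 2.12 and 3.59 at E9.5, 3.03 and 3.28 at E10.5, 2.29 at E11.5 and -2.87 and -2.88 in Wt1-GFP cells. The Wt1-GFP arrays were nearly equal and below every duct array, and E8.75 was the lowest duct array. The E9.5 duct exceeded Wt1-GFP cells 53.1-fold (5.73 (SE 0.45, limma adjusted p = 0.17, 0.012 with the intensity trend)) and E8.75 by 6.8-fold (2.76 (SE 0.56, limma adjusted p = 0.24, 0.057 with the intensity trend)). Its probe lies at chr19:30621424-30621483 (mm9, minus strand). Frzb, a secreted Frizzled-like protein that binds Wnts, was at -3.4 at E8.75, -1.38 and -2.89 at E9.5, -3.11 and -6.01 at E10.5, -6.51 at E11.5 and 0.04 and 2.09 in Wt1-GFP cells. Both Wt1-GFP arrays exceeded the duct arrays, and the caudal E10.5 duct and the bud were not well above background. The reporter difference was -3.2 (SE 1.34, limma adjusted p = 0.41), 9.18-fold. It was -5.33 or -1.07 when the rostral or the caudal Wt1-GFP array was left out, and adding the slide row as a block gave -6.36. The higher Wt1-GFP array was the caudal one, whereas in the duct the rostral arrays were higher (interaction 4.25, SE 0.83, limma adjusted p = 0.81).

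Sfrp2 was higher at the rostral end in every pair. Sfrp2, another secreted Frizzled-like protein, was at 4.96 at E8.75, 5.82 and 3.7 at E9.5, 5.04 and 2.44 at E10.5, 3.46 at E11.5 and 5.54 and 4.35 in Wt1-GFP cells. The rostral excess was 2.12 in the E9.5 duct, 2.6 in the E10.5 duct and 1.19 in Wt1-GFP cells, fitted at 1.97 (SE 0.34, limma adjusted p = 0.73). The reporter difference was -0.19 (SE 0.42). Dkk3 was at -4.97 at E8.75, -3.8 and -6.78 at E9.5, -2.58 and -2.65 at E10.5, -0.89 at E11.5 and -4.32 and -4.42 in Wt1-GFP cells, with the bud as its highest array and the E10.5 arrays next. Dkk2 was at -4.21 at E8.75, -4.27 and -5 at E9.5, -4.59 and -6.11 at E10.5, -6.56 at E11.5 and -3.5 and -4.6 in Wt1-GFP cells, with the rostral array higher in each pair but well above background on only 3 of 8 arrays. Wif1, which binds Wnts directly, was at -4.99 at E8.75, -5.87 and -4.62 at E9.5, -7.04 and -5 at E10.5, -3.25 at E11.5 and -6.24 and -4.38 in Wt1-GFP cells, well above background in the bud and the caudal E9.5 duct alone. Sfrp4 was at -5.99 at E8.75, -4.83 and -3.74 at E9.5, -6.94 and -6.06 at E10.5, -6.55 at E11.5 and -6.18 and -6.37 in Wt1-GFP cells, well above background only in the caudal E9.5 duct, and its reporter difference of 1.99 became -0.12 when dim values were set to the floor of their array. Sfrp1 ranged from -0.52 to 2.14 and Sfrp5 from -1.63 to 0.96, each highest in the rostral Wt1-GFP cells. Kremen1, the co-receptor of the DKK proteins, ranged from -1.66 to 0.57 on the probe used, with the caudal array higher in each pair. A second, dimmer Kremen1 probe, well above background on 5 of 8 arrays, was higher caudally only in the E9.5 duct. Its rostral minus caudal difference was 0.42, against -0.77 on the probe used.

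The 5 feedback and nuclear genes did not share a direction. Rnf43, the ligase that clears Frizzled, was at -5.72 at E8.75, -2.08 and -0.84 at E9.5, 0.2 and 0.39 at E10.5, 0.51 at E11.5 and -6.09 and -6.25 in Wt1-GFP cells. It was well above background on the 5 duct arrays from E9.5 on and on none of the other 3. With undetected levels floored, the E9.5 duct was 6.33-fold above Wt1-GFP cells (4.71 (SE 0.43, limma adjusted p = 0.17, 0.025 with the intensity trend)) and 14.8-fold above E8.75 (4.26 (SE 0.52, limma adjusted p = 0.2, 0.048 with the intensity trend)). Rnf43 was tested only through those 5 duct arrays, so both fitted values set detected against undetected levels. With all arrays kept, their smallest sizes over the alternatives were 1.29 and 1.28. With normexp background correction Rnf43 was called in neither comparison. From E9.5 to E10.5 it was 3.37-fold higher (1.75 (SE 0.43, limma adjusted p = 0.61)), or 1.14 on the log2 scale without the rostral E9.5 duct array. Its probe lies at chr11:87548958-87549017 (mm9, plus strand). Nkd1, which binds Dishevelled and dampens the signal, was at 1.06 at E8.75, -1.31 and -1.69 at E9.5, -1.01 and -1.83 at E10.5, -2.19 at E11.5 and 0.41 and -0.29 in Wt1-GFP cells. E8.75 was its highest array and both Wt1-GFP arrays lay above the later duct. The step from E8.75 to E9.5 was -2.56 (SE 0.28, limma adjusted p = 0.19, 0.048 with the intensity trend), and the reporter difference was -1.56 (SE 0.23, limma adjusted p = 0.23, 0.056 with the intensity trend). A second Nkd1 probe gave -0.38 and 0.23 for these, so both hold for the probe at chr8:91116160-91116219 (mm9, plus strand) only.

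Tcf7 was higher in the caudal duct, and so was Axin2 on the probe used. Axin2, the scaffold of beta-catenin degradation and a widely used readout of the pathway, was at 0.96 at E8.75, -0.54 and 0.99 at E9.5, 0.3 and 1.13 at E10.5, 0.89 at E11.5 and -0.86 and -0.64 in Wt1-GFP cells. The rostral E9.5 duct lay near the Wt1-GFP arrays while the caudal E9.5 duct was as high as E8.75. The reporter difference was 0.97 (SE 0.39, limma adjusted p = 0.4) and the rostral minus caudal difference -0.86 (SE 0.32, limma adjusted p = 0.73). A second Axin2 probe gave 0.81 and -0.69 but had no caudal excess in the E9.5 duct, at -1.19 and -1.25. It was at -0.51 and -0.11 in the E10.5 duct and at -2.9 and -1.17 in Wt1-GFP cells. That probe was also lower in the bud than at E10.5 by 2.49, where the probe used differed by 0.17. Tcf7, a DNA-binding partner of beta-catenin, was at 2.72 at E8.75, 0.64 and 2.75 at E9.5, 1.1 and 2.09 at E10.5, 2.51 at E11.5 and -0.62 and 0.31 in Wt1-GFP cells. The caudal array was the higher in each pair, by 2.11, 0.99 and 0.93, and both Wt1-GFP arrays lay below every duct array. The fitted values were 1.85 (SE 0.4, limma adjusted p = 0.29, 0.061 with the intensity trend) between the reporters and -1.35 (SE 0.33, limma adjusted p = 0.73) for rostral minus caudal. A second Tcf7 probe gave 2.11 and -1.2. Lef1, the related partner, was at -1.14 at E8.75, -0.17 and 0.14 at E9.5, 0.17 and -1.08 at E10.5, -4.42 at E11.5 and -0.49 and 0.66 in Wt1-GFP cells. It was detected on every array but the bud, 15.6-fold below the E10.5 duct with undetected levels floored (-3.96 (SE 0.81, limma adjusted p = 0.31, 0.13 with the intensity trend)). With all arrays kept, the smallest size over the alternatives was -2. That probe joins stretches of the genome 18162 bases apart from end to end (chr3:130907851-130926012, mm9, plus strand), and a second, dimmer Lef1 probe within 1 stretch differed by -0.45 at that step.

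Over time, members differed in both directions after E8.75. At that first step 26 had a higher value and 23 a lower one (median 0.03), and most were not separated. From E8.75 to E9.5, 20 of 49 members were separated by 2-fold (22.4% of all genes), 12 of them higher (11.8%) and 8 lower (10.7%). Higher were Wnt2b, Wnt6, Wnt9a, Wnt9b, Fzd6, Fzd8, Rspo2, Dkk1, Sfrp4, Frzb, Rnf43 and Lef1. Lower were Wnt3, Wnt5b, Fzd1, Fzd9, Fzd10, Rspo3, Lgr5 and Nkd1. The plain fit called 0 members and 0 genes, with unadjusted p under 0.05 for 8 members higher (7.11% of all genes) and 4 lower (8.54%). With the intensity trend Wnt9b and Rnf43 were higher and Nkd1 lower at adjusted p 0.05, where 1.28% of all genes passed. Wnt9b, Rnf43 and Sfrp4 were not well above background at E8.75 or in Wt1-GFP cells. They entered the tests only through later duct arrays, so being separated or called higher adds no support. Leaving out any 1 of the E9.5 and E10.5 duct arrays, or adding the slide row as a block, took this count from 3 to 0. Leaving out either Wt1-GFP array took it to 5, with Dkk1 and Fzd6 added. All arrays of this step lay in the first slide row, but at E8.75 the labels name neither a part of the duct nor a Flk1 selection, so stage, part and gate cannot be told apart.

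From E9.5 to E10.5, 11 members were separated (9% of all genes). Higher were 5 (4.65%), namely Wnt2b, Wnt9b, Fzd6, Dkk3 and Rnf43. Lower were 6 (4.35%), namely Wnt3a, Wnt11, Fzd10, Rspo3, Sfrp4 and Frzb. Stromal markers were lower at this step for 7 of 7 genes (median -3.22, 6 separated), nephrogenic mesoderm markers for 7 of 7 (median -1.99, 2 separated) and endothelial markers for 7 of 7 (median -1.2, 3 separated), none called, and their part in the members' differences was not tested. Within the first slide row, the rostral E10.5 array exceeded the rostral E9.5 array by 2.12 for Wnt9b, 1.74 for Fzd6 and 2.28 for Rnf43, and differed by -2.25 for Fzd10. Without the caudal E10.5 array 17 members were separated in place of 11. From E10.5 to E11.5, 15 members were separated (20.6% of all genes), 8 higher (10.6%) and 7 lower (9.91%). The bud was set against the mean of the rostral and caudal duct, so stage and part cannot be told apart there. Wnt9b, Rnf43 and Fzd6 differed by 0.54, 0.22 and 0.16 at that step, within their SEs of 1.02, 0.52 and 0.39. Within the second slide row the bud differed from the caudal E10.5 duct by 2.77 for Wnt7b, 1.66 for Wnt11, -3.33 for Lef1 and -0.16 for Wnt4. Limma called 0 members and 0 genes at either step with and without the trend, while unadjusted p was under 0.05 for 3 members higher (3.81% of all genes) and 3 lower (3.64%) at the first of these, and for 4 higher (7.17%) and 4 lower (5.42%) at the second.

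**Figure D2:**
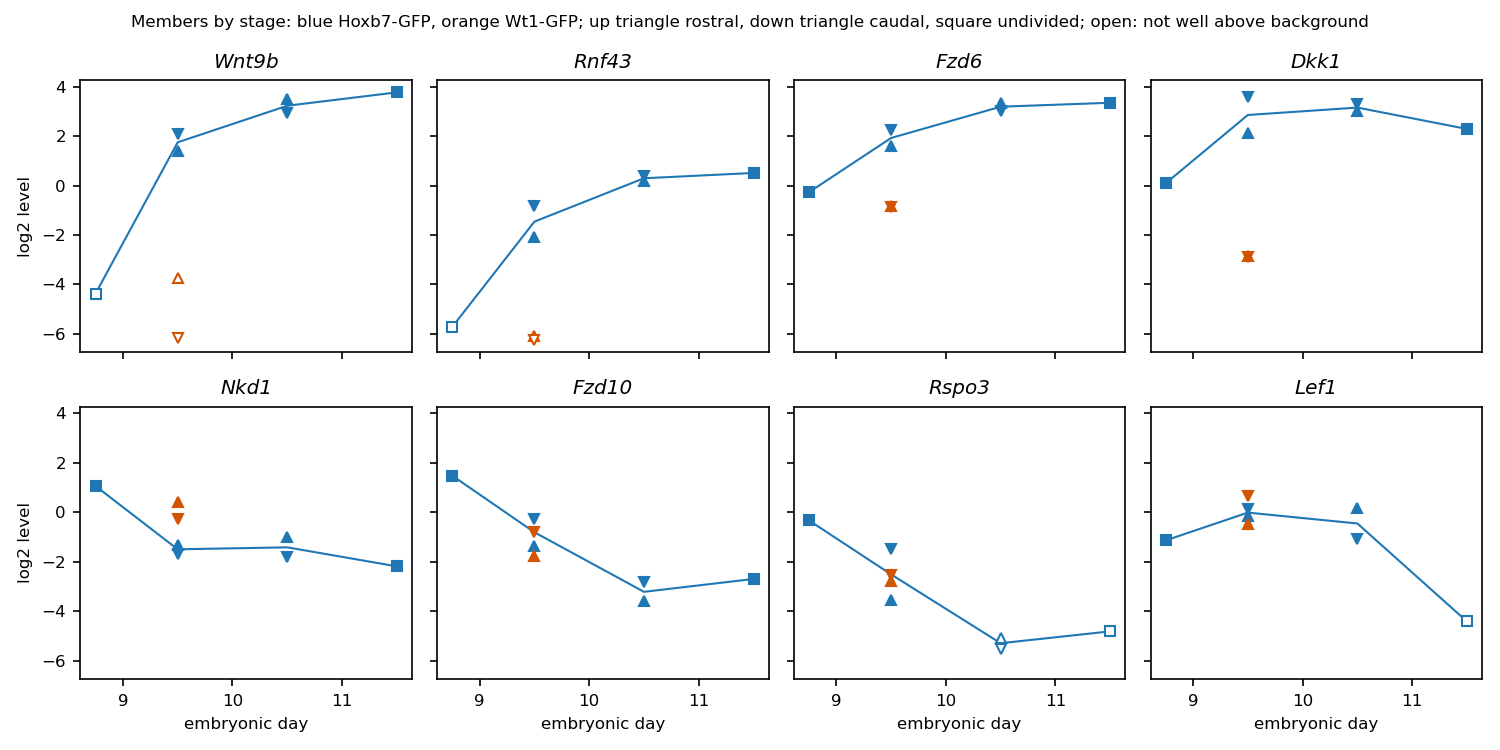
Log2 level (relative to the array's 75th percentile) of 8 members against embryonic day; blue symbols are Hoxb7-GFP arrays joined through the stage means, orange symbols Wt1-GFP arrays at E9.5, upward triangles rostral, downward triangles caudal, squares undivided samples, and open symbols levels not well above background. The upper row (Wnt9b, Rnf43, Fzd6, Dkk1) is lowest at E8.75 among the blue points, with both Wt1-GFP points below every duct point from E9.5 on, and in the lower row Nkd1, Fzd10 and Rspo3 start at their highest and Lef1 ends at -4.42 in the bud.

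Along the body axis, Wnt4 and Sfrp2 were higher rostrally and Tcf7 caudally in all 3 pairs. Of 49 members, 7 were separated by 2-fold (4.75% of all genes). Rostral arrays were higher for 4 (3.42%), Wnt4, Dkk2, Dkk3 and Sfrp2, and caudal arrays for 3 (1.33%), Wnt3, Wif1 and Tcf7. Dkk3 differed by 2.97, 0.07 and 0.09 in the E9.5 duct, the E10.5 duct and Wt1-GFP cells. Wnt3 and Wif1 were not well above background on either array of the E10.5 and Wt1-GFP pairs. With all arrays kept, the smallest sizes over the alternatives were 1.34 for Wnt4, 1.65 for Sfrp2 and -1.24 for Tcf7. They were 0.19 for Dkk2, 0.21 for Dkk3 and -0.16 for both Wnt3 and Wif1. Limma called 0 members and 0 genes with and without the trend, and unadjusted p was under 0.05 for 4 members higher rostrally (3.99% of all genes) and 4 higher caudally (2.79%). With dim values set to the floor, or with probes detected on at least 4 arrays, 4 members were separated by position in place of 7, and 3 were with normexp background correction. On the rostral E9.5 duct array neural and heart markers were also at their highest. Of the 7 stromal markers, 4 were higher rostrally and 3 lower. Col1a1, Pdgfra and Col3a1 were separated and higher rostrally, by 2.09, 1.86 and 1.55, each on the rostral array of all 3 pairs. Foxd1, Pdgfrb and Twist1 differed the other way, by -0.61, -0.44 and -0.46. The part of these cell types in the position differences was not tested. By position, a member was called separated only where all 3 pairs differed in the same direction. That agreement for Wnt4 and Tcf7 therefore adds no support. The interaction with the reporter had unadjusted p under 0.05 for 2 members upward, Rspo1 and Frzb (2.48% of all genes), and 5 downward, Wnt6, Wnt11, Rspo2, Lgr5 and Sfrp5 (3.37%), and limma called 0 members, with 0.00342% of genes called under the trend.

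**Figure D3:**
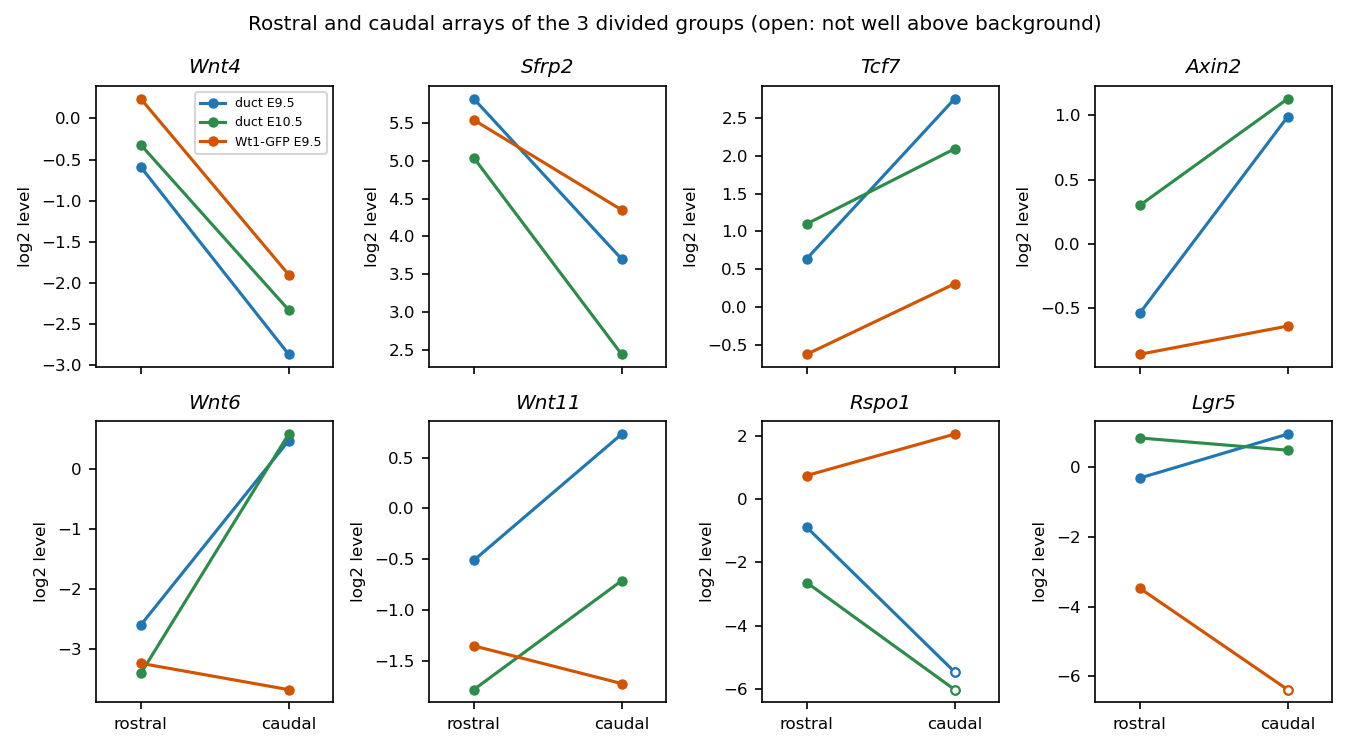
Log2 level (relative to the array's 75th percentile) on the rostral and caudal array of the E9.5 duct, the E10.5 duct and the E9.5 Wt1-GFP cells for 8 members, 1 line per pair, with its own vertical scale in each panel and open points for levels not well above background. Wnt4 and Sfrp2 slope down and Tcf7 and Axin2 up in all 3 pairs, whereas Wnt6, Wnt11 and Rspo1 slope one way in the duct and the other in Wt1-GFP cells.

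The rest of the pathway was summarised from 60 further genes, of which 59 were tested. Between the reporters, 8 were separated and higher in the duct (7.75% of all genes) and 9 lower (5.52%), and the intensity trend called 6 (2.16% of all genes), named here after their values were seen. Of 9 tested further antagonists, 1 was called higher, Sostdc1, a secreted protein that binds LRP6, at -2.17 at E8.75, 0.84 and 1.05 at E9.5, 2.83 and 1.48 at E10.5, 1.61 at E11.5 and -3.68 and -6.38 in Wt1-GFP cells. Both Wt1-GFP arrays and E8.75 lay below the later duct, and the caudal Wt1-GFP array was not well above background, so the fitted 5.97 (SE 0.78, limma adjusted p = 0.21, 0.028 with the intensity trend) rests partly on an undetected level. Shisa3, which keeps Frizzled inside the cell, was at -2.53 at E8.75, -2.5 and -6.86 at E9.5, -6.9 and -6.05 at E10.5, -2.41 at E11.5 and 0.55 and -0.27 in Wt1-GFP cells. Both Wt1-GFP arrays exceeded all 6 duct arrays, but the caudal E9.5 and both E10.5 duct arrays were not well above background, so the fitted -4.82 (SE 1.4, limma adjusted p = 0.34) rests partly on an undetected level. Of 11 nuclear partners, 0 were called higher and 2 lower, Tcf7l1 and Tcf7l2, relatives of Tcf7. Tcf7l1 was at 0.04 at E8.75, -1.2 and -1.48 at E9.5, -0.63 and -0.6 at E10.5, -0.08 at E11.5 and 0.75 and 1.34 in Wt1-GFP cells, with both Wt1-GFP arrays above all 6 duct arrays (-2.38 (SE 0.3, limma adjusted p = 0.21, 0.032 with the intensity trend)). Tle3, a co-repressor, differed by -1.05 (SE 0.23). Tcf7l2 differed by -1 (SE 0.22), against 1.85 for Tcf7.

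Of 14 non-canonical receptors and planar polarity genes, 1 was called higher, Celsr2 (2.28, SE 0.22), and 1 lower, Ror1 (-2.36, SE 0.29). The largest differences were those of Daam2 at -3.08 (SE 0.71) and Celsr3 at 2.39 (SE 1.26), the latter from the rostral E9.5 duct array, which also had the most neural marker signal. Of 12 relay genes such as Ctnnb1 (beta-catenin), 0 were separated or called, with Dvl2 at -0.4 and Gsk3a at -0.39. Of 5 genes of ligand release, 0 were called, with Porcn at 1.38 and Gpc4 at 1.31. Of 8 textbook targets, 1 was called higher, the cyclin gene Ccnd1 (1.19, SE 0.26), while Cdx1 differed by 2.28 and Sp5 by 1.34.

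Most textbook targets had lower values at E9.5 than at E8.75 and on rostral than on caudal arrays, but Ccnd1 was the only one called. Sp5, a direct target in many tissues, was at 0.86 at E8.75, -2.42 and -1.09 at E9.5, -3.99 and -1.5 at E10.5, -3.01 at E11.5 and -3.46 and -2.72 in Wt1-GFP cells. E8.75 was its highest array and the caudal array was the higher of each pair. Cdx1, a target in the posterior embryo, was at 0.07 at E8.75, -4.88 and 0.1 at E9.5, -4.25 and 0.1 at E10.5, -2.67 at E11.5 and -6.27 and -3.07 in Wt1-GFP cells, with caudal duct arrays as high as E8.75 and rostral ones far lower. From E8.75 to E9.5, 7 of 8 targets were lower (median -1.71), 3 were separated and lower (10.7% of all genes), and Ccnd1 alone was called with the intensity trend, higher by 2.15. By position, 7 of 8 were higher caudally and 5 were separated that way (1.33% of all genes). Limma called 0 of 8 with or without the trend (lowest adjusted p 0.73 and 0.39), and unadjusted p was under 0.05 for 4 (2.79% of all genes). T and Cdx4 were among the genes separated in both comparisons. T was well above background at E8.75 alone, so it was tested only through that array and its position difference rests on undetected levels. Cdx4 was not well above background on any rostral array or on either E10.5 array. Over all genes the medians were -0.02 and 0.01 for these comparisons.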

How the data were processed

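Total RNA (10 ng) from sorted cells was amplified, labelled with Cy3 and hybridised to 1-colour Agilent arrays, per the labels. Per the file headers, each deposited intensity is a processed, background-subtracted signal with flags for spots well above background, and the software was Agilent Feature Extraction 10.7.3.1. The authors also deposited a log2 matrix of unstated scale, which served as an alternative; it followed the scanner values at r = 0.9999 after centring on probe medians. Processed signals were turned into log2 and each array's 75th percentile (242.9 to 316.7) was subtracted. Outlier spots were left out, and probes well above background on at least 1 array were tested, with 1 probe per gene. The number of arrays limits the precision.

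Limma 3.58.1 (R 4.3.3, files read with version 1.17.8 of data.table) was fitted over 29282 gene names with 5 group terms and a position term (0.5 rostral, -0.5 caudal, 0 undivided), which left 2 residual degrees of freedom, and the lone arrays of E8.75 and E11.5 were taken to vary as the rest did. The interaction fit left 1. P-values were adjusted by Benjamini-Hochberg. An exact two-sided permutation test of 2 arrays against 2 cannot go below 0.333 and was not used. A fold "with undetected levels floored" sets the brighter group's mean against the dimmer group's. Undetected arrays there took the higher of their own level and the array's dimmest detected signal. Such a fold is not a lower bound, since undetected levels can lie above that floor and other processing gave smaller differences. The fit was tested on simulated data. Alternatives were an intensity trend, normexp, quantile normalization, the matrix, other filters, floored values, no position term, the slide row as a block, mean probes and leaving out arrays. The trend with arrays left out or with the block, and within-row differences, were added after the data were seen. Members and gene lists were chosen with earlier results of these data known. Values on all 8 arrays are given for members separated in any comparison or past adjusted p 0.05 with or without the trend, and for the 2 brightest per role. Other members are given by range, and in each further pathway list the 2 genes with the largest reporter difference. Probe positions are mm9, from the scanner files, and were not set against exons.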

Additional observations from a re-analysis of the deposited data

How the results depend on the processing

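Of 1133 values of 72 named member differences under alternatives, 1116 kept their direction and side of the threshold and 15 passed it. Another 2 reversed, Fzd9 between the reporters (0.5 with the slide row as a block) and Sfrp4 (-0.12 on floored values). The members were named for a fitted difference of at least 1, and none passed the threshold in the plain fit. Keeping direction and side was thus likely from the outset, and the count does not measure size. With all arrays kept, Wif1 by position ran from -1.89 to -0.16 and Fzd1 between the reporters from -3.2 to -2.56. For the reporters the plain fit called 0 genes, against 633 with the intensity trend, 209 with normexp (4 members, Dkk1, Fzd1, Fzd6 and Wnt9b) and 8 with no position term. With the trend and 1 array left out the genes called were 290 and 1 (E9.5 duct, rostral and caudal), 4 and 4 (E10.5 duct), and 471 and 198 (Wt1-GFP cells), and the members 6, 0, 0, 0, 11 and 5, against 5. From E8.75 to E9.5 the counts were 374 with the trend, 166 with normexp (3 members, Fzd10, Nkd1 and Wnt9b) and 16 with no position term. With the trend and an array left out they were 2, 0, 0, 0, 672 and 596 genes and 0, 0, 0, 0, 5 and 5 members in the same order, against 3. For the interaction the trend called 1 gene, no member. Under normexp the members separated by 2-fold were 3 by position (7 otherwise), and 11, 5 and 4 over the 3 steps, against 20, 11 and 15. By position 4 were separated on floored values and 4 with detection on at least 4 arrays. With 1 array left out, separated members ranged from 17 to 27 between the reporters, 20 to 23, 11 to 17 and 15 to 16 over the steps. The cause was not tested. No paired analysis was possible because the labels give no replicate numbers, and rostral and caudal arrays entered through the position term. Between 61% and 69.4% of spots were well above background, which limits what dim members can show. Of 14 members with 2 probes, the probes differed in sign for 4 between the reporters and for 5, 4 and 8 over the steps and 5 by position.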
